A study of Homo sapiens with 2 samples.

Results

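Natural antisense long non-coding RNAs (lncRNAs) and the genes they are named after were examined in MOLM-13, a human acute myeloid leukemia (AML) cell line. A gene was taken as antisense where its symbol ended in -AS and 1 digit, where the symbol before that ending was itself a gene in the table, and where the antisense gene had at least 50 reads over both libraries. The table held 50868 genes, of which 1445 had such a symbol and 1425 of these had a sense gene by name. Among the 1425, 928 had 0 reads in both libraries, 200 had 1 to 9 reads, 141 had 10 to 49 reads and 155 passed, while 1 further gene was set aside by the rule and is not analysed here. Of the 155, 149 are lncRNAs in the GENCODE 44 annotation, 2 are transcribed pseudogenes and 4 have no record there. The read sum chose the genes, so their level is a description. RNF207-AS1, with 26 reads in Vector and 24 in the other library, lay just inside the limit, and PRR34-AS1, with 32 and 17 reads, lay just outside.

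The study asked what overexpression of UNC5B, a netrin receptor, does to proliferation and adhesion genes of AML cells. Messenger RNA separated from total RNA was sequenced from 1 library of cells given the control vector (Vector) and 1 library of cells given the UNC5B construct (OE-UNC5B). According to the methods, the construct was a lentiviral plasmid with UNC5B behind the CMV promoter, a FLAG tag, mCherry and a puromycin resistance gene, and infected cells were screened with puromycin. Time after infection was not given in the sources used here, and 1 library per group leaves no replicate check: every difference below compares 2 libraries, and every interval covers counting error only.

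The targeted gene, UNC5B, had 0 reads in each library. At these depths 3 reads, taken as the floor, equal 0.219 CPM (reads scaled to library size) for Vector and 0.192 CPM for OE-UNC5B, so no fold change can be given for it. Every direction therefore rests on the labels, and the name "library labelled OE-UNC5B" is used below. The libraries held 13715566 and 15637137 counted reads. All 8 myeloid leukemia markers checked (among them PTPRC, SPI1, CD33 and FLT3) had more than 3 reads in each library, and 9 of 12 markers of fibroblasts, epithelium, endothelium, lymphocytes and erythroid cells had at most 3 reads in each, with 31 and 14 reads summed over the 12 and DCN, KRT8, EPCAM, KDR and CDH5 among those at 0. Of the 8, the granule genes LYZ (51742 reads in Vector, 23700 in the library labelled OE-UNC5B) and MPO (3363, 1553) had fewer reads in the latter. PTPRC (1592, 3102), FLT3 (4067, 6395), CD33 (1775, 2299), HOXA9 (800, 1303) and MEIS1 (247, 542) had more, and SPI1 had 3219 and 3228. The part of these differences in the results below was not tested.

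Antisense lncRNAs are transcribed from the strand opposite a neighbouring gene. Some start head to head with the gene from a shared CpG-rich promoter, and others begin inside the gene or beyond its end and run across its exons. Known examples recruit or keep away chromatin regulators at the locus, mask splice sites or stabilise the sense mRNA, so that antisense and sense RNA can move together, in opposite directions or without relation. In non-stranded data the reads of overlapping exons of both strands cannot be told apart, and the use of strand in counting was not given in the sources used here.

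The promoter shared by head-to-head pairs is shown for 5 loci, with both genes higher, with opposite directions or with a sense gene that hardly differed. No pair with both genes lower is shown. For 24 pairs the stretches 250 bases upstream of the RefSeq start sites (GRCh38.p14) overlapped, out of 110 antisense and 130 sense genes with a window in the table. Each line gives the 250 bases before a start of the sense gene, 5′ to 3′ on the sense strand, and capitals mark the bases that lie within 250 bases upstream of both the sense and the antisense start. The windows are chr5:88883185-88883434 (minus strand) for MEF2C, chr13:51453037-51453286 (minus) for INTS6, chr5:78360367-78360616 (plus) for SCAMP1, chr11:8964443-8964692 (minus) for TMEM9B and chr5:181261144-181261393 (minus) for TRIM52. INTS6 was chosen after its values were seen.
MEF2C: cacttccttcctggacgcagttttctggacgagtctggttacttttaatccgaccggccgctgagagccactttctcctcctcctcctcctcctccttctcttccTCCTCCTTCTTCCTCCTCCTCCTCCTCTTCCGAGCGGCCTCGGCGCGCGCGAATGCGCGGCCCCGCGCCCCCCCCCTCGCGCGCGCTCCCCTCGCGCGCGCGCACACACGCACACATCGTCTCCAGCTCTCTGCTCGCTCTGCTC
INTS6: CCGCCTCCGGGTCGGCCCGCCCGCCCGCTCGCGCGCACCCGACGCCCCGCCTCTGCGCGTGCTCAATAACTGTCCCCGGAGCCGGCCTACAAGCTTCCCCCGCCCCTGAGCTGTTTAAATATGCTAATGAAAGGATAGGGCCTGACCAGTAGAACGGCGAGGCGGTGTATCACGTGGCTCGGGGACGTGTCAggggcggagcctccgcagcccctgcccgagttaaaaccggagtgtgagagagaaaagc
SCAMP1: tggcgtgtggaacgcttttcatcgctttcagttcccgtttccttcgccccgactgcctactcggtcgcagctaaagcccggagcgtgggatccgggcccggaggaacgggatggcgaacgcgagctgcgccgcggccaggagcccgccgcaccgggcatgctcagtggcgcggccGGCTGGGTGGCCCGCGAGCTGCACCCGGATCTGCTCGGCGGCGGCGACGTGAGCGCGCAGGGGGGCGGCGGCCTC
TMEM9B: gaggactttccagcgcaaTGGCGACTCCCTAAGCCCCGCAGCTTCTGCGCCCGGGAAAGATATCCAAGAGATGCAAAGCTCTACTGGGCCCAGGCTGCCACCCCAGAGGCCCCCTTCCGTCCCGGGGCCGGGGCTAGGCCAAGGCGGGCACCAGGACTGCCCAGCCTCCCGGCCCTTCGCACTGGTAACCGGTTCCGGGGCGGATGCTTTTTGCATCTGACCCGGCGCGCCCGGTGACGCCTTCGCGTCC
TRIM52: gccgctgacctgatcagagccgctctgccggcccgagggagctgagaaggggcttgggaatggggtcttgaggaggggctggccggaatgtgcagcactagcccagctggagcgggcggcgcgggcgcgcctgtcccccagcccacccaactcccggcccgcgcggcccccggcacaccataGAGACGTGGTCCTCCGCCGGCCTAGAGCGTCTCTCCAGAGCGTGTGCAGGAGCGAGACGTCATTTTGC
Where a gene has several RefSeq starts, the starts with the longest overlap were taken, and which starts these cells use was not tested. The start sites taken for the sense and antisense genes lay 146 bases apart at MEF2C, 309 at INTS6, 76 at SCAMP1, 233 at TMEM9B and 69 at TRIM52. The windows held 28, 27, 37, 21 and 23 CG dinucleotides in the same order, where the median was 11 over the upstream stretches of all 35116 RefSeq windows, 19 over those of the 130 sense genes, 19 over those of the 110 antisense genes and 23 over the 24 sense stretches that overlapped an antisense stretch. Searched on both strands of the same stretches, the letters GGGCGG, the GC box, were found in 16 of the 24 and in 42.6% of all windows. CCAAT was found in 2 of the 24 and in 32.0% of all, and TATAAA in 0 of the 24 and in 10.7% of all. Of the 24 pairs that share these upstream bases, 10 had log2 fold changes of the same sign and 14 of opposite sign. MEF2C-AS1 and INTS6-AS1 were higher along with their sense genes, SCAMP1-AS1 was higher and SCAMP1 lower, TMEM9B-AS1 was higher while TMEM9B hardly differed, and TRIM52-AS1 was lower and TRIM52 higher.

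The antisense genes were mostly low. Per length and library size (FPKM), the 155 genes had a median of 1.28 FPKM in Vector and 1.21 FPKM in the library labelled OE-UNC5B, and 68 and 62 of them lay under 1 FPKM. Together they held 0.182% and 0.211% of the counted reads, with a median of 161 reads a gene over both libraries. Their sense genes, of which 153 are protein-coding, had medians of 3.56 and 3.61 FPKM. Over pairs whose sense gene had at least 10 reads (133 of 155), the median ratio of antisense to sense FPKM was 0.281 in Vector against 0.300 in the library labelled OE-UNC5B. The antisense gene was above its sense gene in both libraries in 25 of these 133 pairs. These comparisons rest on the gene lengths behind the deposited FPKM, which were not examined.

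**Figure D1:**
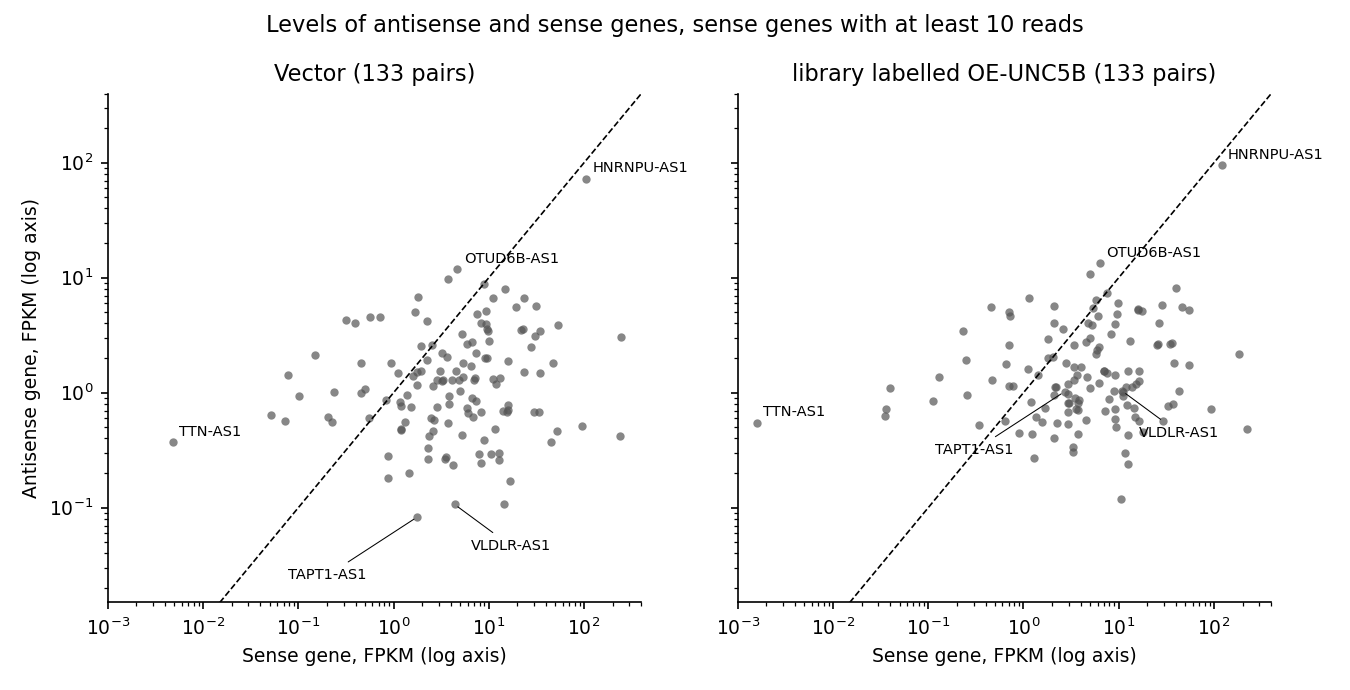
FPKM of the antisense gene (vertical log axis) against FPKM of its sense gene (horizontal log axis) in each library, 1 point per pair, with a dashed line at equal levels. Most of the 133 points lie under the line (medians 0.281 and 0.300 of the sense level), TTN-AS1 lies far above it, and VLDLR-AS1 and TAPT1-AS1 stand at the lower edge in Vector and within the cloud in the library labelled OE-UNC5B.

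The 8 antisense genes with the highest mean FPKM had changes of under 2-fold. HNRNPU-AS1 had 72.6 FPKM in Vector and 95.7 FPKM in the library labelled OE-UNC5B, with 4988 and 7492 reads and a log2 fold change of 0.35 (0.30 to 0.40), and HNRNPU, a nuclear RNA-binding protein, had a log2 fold change of 0.15 on 18631 and 24342 reads. In the deposited loci HNRNPU-AS1 lies on the same strand as HNRNPU, on chromosome 1, so its name and its position there disagree. The rule goes by name, so this pair stays in every count given here, among them the pairs with both genes higher. Here and below, start distances are those between the nearest starts of the 2 genes, taking the deposited gene start and the GENCODE 44 transcript starts inside the gene bounds. OTUD6B-AS1, whose start lies 7 bases from that of the deubiquitinase gene OTUD6B, had 11.9 and 13.4 FPKM, against 4.68 and 6.34 FPKM for OTUD6B. FGD5-AS1 had 10.1 and 9.72 FPKM on 1326 and 1458 reads, whereas FGD5, a guanine nucleotide exchange factor known from endothelium, had 0 reads in both libraries. CARD8-AS1 (9.70 and 10.9 FPKM) was above CARD8, an inflammasome sensor at 3.77 and 4.98 FPKM, per length only. It had 262 and 335 reads against 1659 and 2497 of CARD8. PAN3-AS1 (6.69 and 8.14 FPKM) lay below the mRNA deadenylation subunit PAN3 (23.4 and 40.2 FPKM). PITPNA-AS1 (8.74 and 7.43 FPKM) was close to PITPNA (8.91 and 7.56 FPKM), but 69.9% of its exonic bases lie in PITPNA exons. PRKAR1B-AS1 had 6.78 and 6.65 FPKM, above PRKAR1B, a regulatory subunit of protein kinase A, at 1.79 and 1.15 FPKM. In reads it was below, with 68 and 76 against 201 and 147. TMPO-AS1, antisense to the gene of the nuclear lamina-associated protein thymopoietin, was the member of this group with the largest change: 447 reads in Vector against 342 in the library labelled OE-UNC5B, a log2 fold change of -0.62 (-0.83 to -0.42), while TMPO had 3201 and 3909 reads and a log2 fold change of 0.05 (-0.02 to 0.12).

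Relative to Vector, 6 of the 155 antisense genes were at least 2-fold higher in the library labelled OE-UNC5B and 4 were at least 2-fold lower. With 1 added to the FPKM, which shrinks the changes of low genes, NPPA-AS1 was the 1 antisense gene past 2-fold. The counts on the scaled reads are 3.87% and 2.58%, where 5.15% of the 15384 genes with at least 10 reads were higher and 4.79% lower by as much. At the antisense genes' own limit of 50 reads the shares over all 12290 genes were 2.92% and 2.42%, and over the 673 lncRNAs of the annotation 6.09% and 2.53%, so the count of changed antisense genes was near the background. The median log2 fold change was 0.15, with 101 genes above 0 and 54 below, against -0.01 over all genes. The 673 lncRNAs hold 149 of the antisense genes. The 524 other lncRNAs with at least 50 reads had a median of 0.13, and 6.68% of them were at least 2-fold higher and 2.67% lower. Their read intervals lay above 0 in 27.1% and below 0 in 12.8%. Read intervals lay above 0 for 44 antisense genes (28.4%) and below 0 for 15 (9.68%). Over all lncRNAs with at least 50 reads these shares were 27.5% and 11.7%, and over all genes with at least 50 reads 29.6% and 30.6%.

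TAPT1-AS1 had 4 reads in Vector against 56 in the library labelled OE-UNC5B, a log2 fold change of 3.41 (10.7-fold higher, 95% interval 2.13 to 5.50), which was the largest among the antisense genes on the scaled reads. The size rests on the 4 Vector reads, and it was 2.61 on the FPKM with 0.1 added and 0.90, under 2-fold and smaller than that of NPPA-AS1 (-1.40), with 1 added. It lies on the plus strand of chromosome 4 from 16226685 to 16320140, and its nearest start is 214 bases from one of TAPT1, a transmembrane protein gene, with which it shares no exonic bases. Of the TAPT1-AS1 exonic bases, 8.98% lie in exons of RPS21P4 on the minus strand. TAPT1 had 282 and 488 reads, a log2 fold change of 0.55 (0.34 to 0.77). Both genes of this locus were thus higher, the antisense gene by more. VLDLR-AS1 had 8 and 88 reads (8.83-fold higher, log2 fold change 3.14, 2.18 to 4.48), with 2.45 on the FPKM with 0.1 added and 0.88, under 2-fold, with 1 added. VLDLR, the very low density lipoprotein receptor, had 658 and 1876 reads, a log2 fold change of 1.27 (1.15 to 1.40). VLDLR-AS1 runs on the minus strand of chromosome 9 from 2422702 to 2643359, has a start 12 bases from one of VLDLR and shares 3.61% of its exonic bases with VLDLR exons.

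MEF2C-AS1 had 28 reads in Vector against 85 in the library labelled OE-UNC5B, and MEF2C, a MADS-box transcription factor of myeloid and lymphoid progenitors, had 1946 and 5714 reads. Their log2 fold changes, 1.35 (0.73 to 2.04) and 1.32 (1.24 to 1.39), were alike, and their ratio hardly moved (log2 change 0.03, -0.59 to 0.72). MEF2C-AS1 has 12161 exonic bases, of which 469 (3.86%) lie in MEF2C exons. MEF2C had many more reads, and how many reads counted for MEF2C-AS1 came from the shared bases was not tested. The same holds for VLDLR-AS1 and VLDLR. The remaining higher genes had sense genes that differed by less than 1.5-fold. TMEM9B-AS1 had 14 and 47 reads (log2 fold change 1.47, 0.62 to 2.49), while TMEM9B, a lysosomal membrane protein gene, had 377 and 418 reads (-0.09, -0.29 to 0.12). ZNF337-AS1 had 36 and 100 reads (1.22, 0.67 to 1.83), and the zinc finger gene ZNF337 had 510 and 721 reads (0.26, 0.10 to 0.43), but 53.2% of the exonic bases of ZNF337-AS1 lie in exons of ZNF337. SRP14-AS1 had 23 and 58 reads (1.08, 0.38 to 1.86, and 0.999 on the FPKM with 0.1 added), and SRP14, a subunit of the signal recognition particle, had 3262 and 3061 reads (-0.33, -0.40 to -0.26). At SRP14 the genes do not overlap and their starts lie 123 bases apart.

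**Figure D2:**
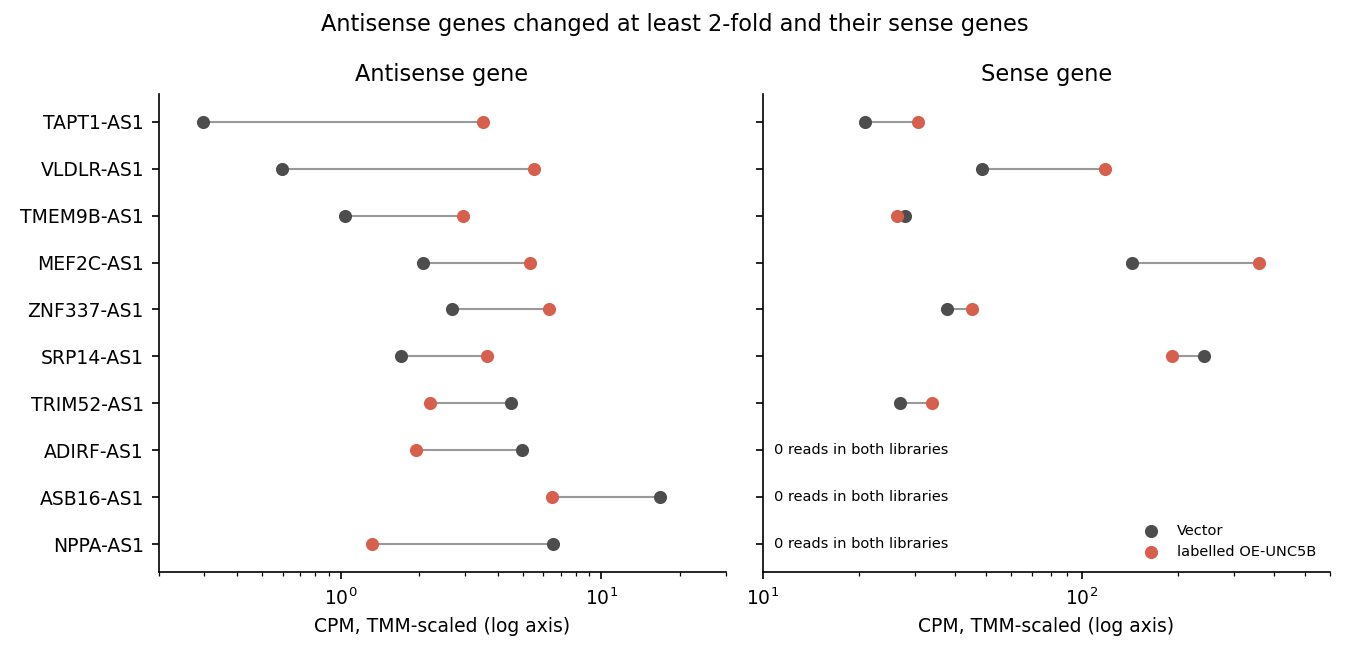
CPM after TMM scaling (log axes, with a different range in each panel) of the 10 antisense genes that differed at least 2-fold and of their sense genes, in Vector (grey) and in the library labelled OE-UNC5B (red), 1 library each. The upper 6 antisense genes are higher and the lower 4 are lower in the library labelled OE-UNC5B; ADIRF, ASB16 and NPPA had 0 reads.

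Of the 4 lower antisense genes, 3 had a sense gene with no reads at all. NPPA-AS1 had 88 reads in Vector against 21 in the library labelled OE-UNC5B (4.85-fold lower, log2 fold change -2.28, -3.07 to -1.60). NPPA, the precursor of atrial natriuretic peptide, had 0 reads in both, and the chloride transporter gene CLCN6, which overlaps NPPA-AS1 on the same strand, had 467 and 535 reads (log2 fold change -0.04). ASB16-AS1 had 226 and 103 reads (-1.37, -1.72 to -1.03), the highest read sum among the 10 changed genes. ADIRF-AS1 had 67 and 31 reads (-1.34, -2.01 to -0.71). TRIM52-AS1, the fourth, had 61 and 35 reads (-1.03, -1.68 to -0.42, but -0.98 with library totals and -0.99 with DESeq2 size factors, under 2-fold), whereas TRIM52, a RING-type ubiquitin ligase gene, had 363 and 541 reads (0.34, 0.14 to 0.53). The genes at TRIM52 do not overlap each other, but 22.6% of the exonic bases of TRIM52-AS1 lie in exons of other genes.

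In all, 22 antisense genes had a sense gene under 10 reads, and 18 of these sense genes had at most 3 reads in each library and 10 had 0 in both. None of the 22 antisense genes was at least 2-fold higher and 3 (13.6%) were at least 2-fold lower, beside 6.09% higher and 2.53% lower over all lncRNAs with at least 50 reads. The median log2 fold change of this group was -0.01. Read intervals lay above 0 for 5 (22.7%) and below 0 for 6 (27.3%), beside 27.5% and 11.7% over the lncRNAs, and whether the group differs from them was not tested. IQCH-AS1, with 217 and 410 reads (log2 fold change 0.68, 0.44 to 0.92), was highest, against 5 and 4 reads of IQCH. SLC9A3-AS1 had 649 and 679 reads, a log2 fold change of -0.17 (-0.33 to -0.01), with 3 and 0 reads of the sodium-proton exchanger gene SLC9A3. ZNF433-AS1 had 356 and 355 reads with ZNF433 at 0. IQCH-AS1, SLC9A3-AS1 and ZNF433-AS1 were picked after their values were seen. NUTM2A-AS1 (287 and 393 reads) and NUTM2B-AS1 (310 and 433 reads), also picked in this way, carry the names of near-identical gene copies, between which the counting may have split reads.

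Among the 133 sense genes with at least 10 reads, 3 were at least 2-fold higher and 3 at least 2-fold lower, 2.26% each. Over the 11930 protein-coding genes with at least 10 reads the shares were 3.93% and 4.28%. The median log2 fold change of the sense genes was 0.02. Read intervals lay above 0 for 47 (35.3%), below 0 for 32 (24.1%) and across 0 for 54, beside shares of 28.4% above and 30.4% below over all protein-coding genes. Beside MEF2C and VLDLR, the higher gene was RFX3, a transcription factor of cilium genes, with 58 reads in Vector against 248 in the library labelled OE-UNC5B (log2 fold change 1.85, 1.44 to 2.30, but 0.56 and under 2-fold on the FPKM with 1 added). RFX3-AS1, which starts 719 bases away without overlap, had 18 and 38 reads (0.82, -0.004 to 1.74). The lower gene with many reads was INHBA, the activin beta A subunit, with 1019 and 587 reads (-1.03, -1.18 to -0.88, and just under 2-fold with library totals or DESeq2 size factors), and INHBA-AS1 had 81 and 78 reads (-0.29, -0.76 to 0.18). TTN, the sarcomere protein titin, had 8 and 3 reads and SLFNL1 had 10 and 4, and both read intervals included no change. TTN-AS1 was far above TTN, with 189 and 320 reads (log2 fold change 0.52, 0.26 to 0.79) and 0.369 and 0.548 FPKM against 0.00485 and 0.00160 FPKM, although 54.9% of its exonic bases lie in TTN exons. SLFNL1-AS1 had 62 and 47 reads (-0.63, -1.22 to -0.07).

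Antisense and sense genes moved in the same direction about as often as in opposite directions. In 67 of the 133 pairs (50.4%) both log2 fold changes had the same sign and in 66 the signs differed. Both genes were higher in 48 pairs and both lower in 19, the antisense gene was higher and the sense gene lower in 42, and the reverse held in 24. The antisense change was above the sense change in 83 pairs, and the median difference over all pairs was 0.13, where it was above in 70 of 137 pairs, with a median difference of 0.02, for other lncRNAs that overlap a protein-coding gene on the opposite strand. Across the 133 pairs Pearson's r of the 2 log2 fold changes was 0.26 and Spearman's rho 0.13, as a description of points that come from the same 2 libraries and partly share exons. The same signs occurred in 71 of those 137 pairs (51.8%), and in 17 of 25 pairs (68%) of divergent transcripts with names ending in -DT. Whether these values differ from those of the antisense genes was not tested.

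**Figure D3:**
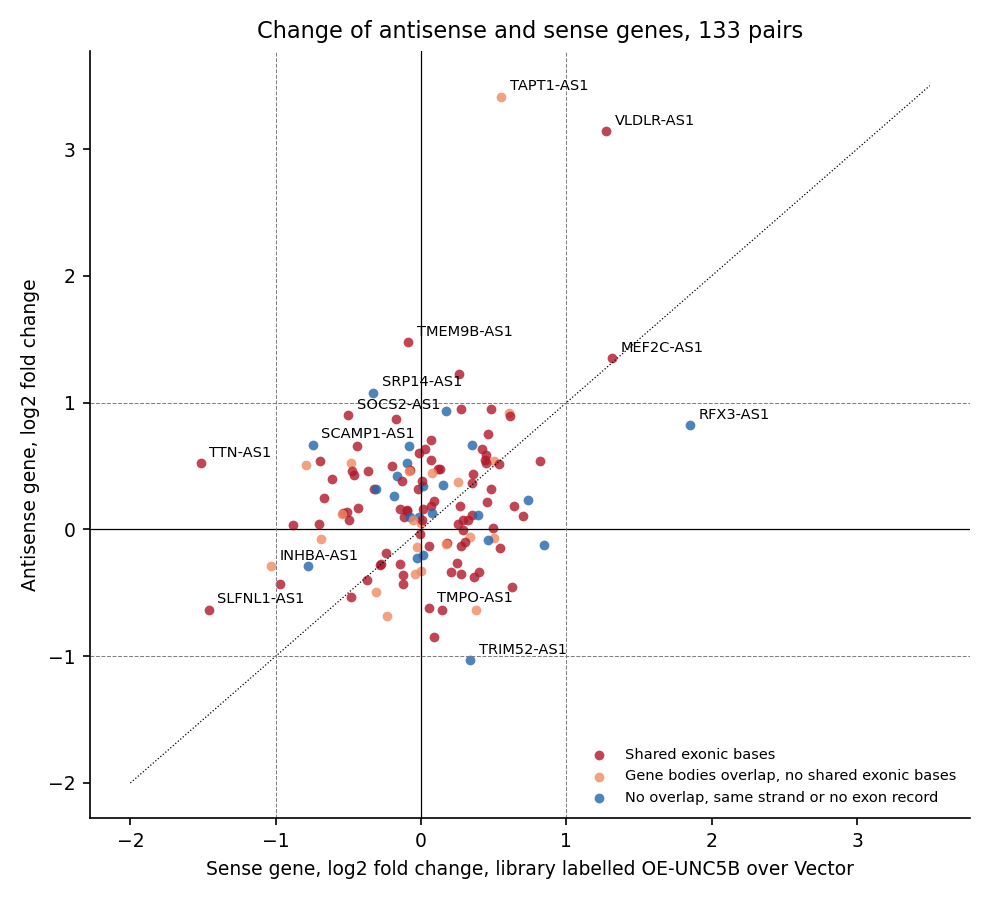
Log2 fold change of the antisense gene (vertical axis) against that of its sense gene (horizontal axis), library labelled OE-UNC5B over Vector, for 133 pairs, coloured by the position of the antisense gene. Dashed lines mark 2-fold, the dotted line marks equal change, and the points fall in all 4 quadrants (48, 19, 42 and 24 pairs), with VLDLR-AS1 and MEF2C-AS1 past 2-fold on both axes.

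In 31 pairs both read intervals left out no change, and of these 19 had the same sign (16 higher and 3 lower) and 12 opposite signs (10 with the antisense gene higher, 2 with it lower). The 16 include HNRNPU-AS1 and HNRNPU, which lie on the same strand in the deposited loci. Of the 137 pairs of other lncRNAs, both intervals left out 0 in 27, with 15 of the same and 12 of opposite sign, and of the 25 -DT pairs in 5, with 3 and 2. Those described in this paragraph and not above were picked after their values were seen. Both genes were higher at MEF2C, VLDLR and TAPT1, and also at SATB1, JMJD1C, MBNL1 and INTS6. SATB1-AS1 had 110 and 246 reads (log2 fold change 0.92, 0.59 to 1.26) and SATB1, a chromatin organiser of lymphoid and stem cells, 3003 and 5377 reads (0.60, 0.54 to 0.67), with no shared exonic bases. JMJD1C-AS1 had 63 and 108 reads (0.54) and JMJD1C, of a histone demethylase family, 2194 and 4570 reads (0.82), but 36.2% of the antisense exonic bases lie in JMJD1C exons. MBNL1-AS1 had 27 and 54 reads (0.75) and the splicing regulator MBNL1 4873 and 7904 reads (0.46). INTS6-AS1 had 51 and 117 reads (0.95, 0.48 to 1.46) and INTS6, an Integrator complex subunit, 1008 and 1435 reads (0.27, 0.16 to 0.39). The 3 pairs in which both genes were lower were EMC3-AS1, LAMP5-AS1 and SLC25A25-AS1, with antisense log2 fold changes of -0.49, -0.53 and -0.40 and sense log2 fold changes of -0.31, -0.48 and -0.37.

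Opposite directions were most distinct at SCAMP1, the 1 pair in which both genes differed at least 1.5-fold with both intervals off 0. SCAMP1-AS1 had 106 reads in Vector against 199 in the library labelled OE-UNC5B (log2 fold change 0.67, 0.32 to 1.03), and SCAMP1, a secretory carrier membrane protein gene, had 1361 and 957 reads (-0.74, -0.87 to -0.62). Their gene bodies do not overlap and no exonic base of SCAMP1-AS1 lies in an exon of another gene. At SOCS2, a feedback inhibitor of cytokine signalling, SOCS2-AS1 had 66 and 146 reads (0.90, 0.48 to 1.35) and SOCS2 945 and 787 reads (-0.50, -0.64 to -0.36). At EPHA1, an ephrin receptor gene, the antisense gene had 57 and 96 reads (0.51, 0.03 to 1.01) and EPHA1 112 and 76 reads (-0.79, -1.24 to -0.36). GAS6-AS1 had 46 and 79 reads (0.54, 0.001 to 1.10), with GAS6, the ligand of the TYRO3, AXL and MERTK receptors, at 5010 and 3642 reads (-0.70, -0.76 to -0.64). PSMA3-AS1, with 619 and 1048 reads (0.52, 0.38 to 0.67), stood against the proteasome subunit gene PSMA3 with 1590 and 1343 reads (-0.48, -0.59 to -0.38). GAS6-AS1 and PSMA3-AS1 were picked from the 12 after their values were seen.

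The ratio of antisense to sense reads does not depend on how the libraries are scaled. Its change left out 0 in 51 of 133 pairs, upward in 37 (27.8%) and downward in 14 (10.5%), and it was at least 2-fold with such an interval in 13 pairs upward (9.77%) and 4 downward (3.01%). On the FPKM these 2-fold counts were 10 and 2 with 0.1 added, and 1 and 0 with 1 added. In the 137 pairs of other lncRNAs the interval lay above 0 in 21.9% and below 0 in 13.9%, and the ratio was at least 2-fold with such an interval upward in 8.03% and downward in 5.84%. The largest shift was at TAPT1 (log2 change of the ratio 2.86, 1.55 to 4.95), followed by TTN (2.04, 0.09 to 4.74, on 8 and 3 TTN reads), VLDLR (1.87, 0.90 to 3.21) and TMEM9B (1.56, 0.68 to 2.60). SCAMP1 (1.41), SRP14 (1.41) and SOCS2 (1.40) came next. Toward the sense gene the ratio moved most at TRIM52 (-1.37, -2.05 to -0.72) and at CDK6, the cyclin D-dependent kinase gene, picked after its values were seen. CDK6 had 4273 and 7760 reads while CDK6-AS1 had 85 and 73, a ratio change of -1.08 (-1.56 to -0.61).

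**Figure D4:**
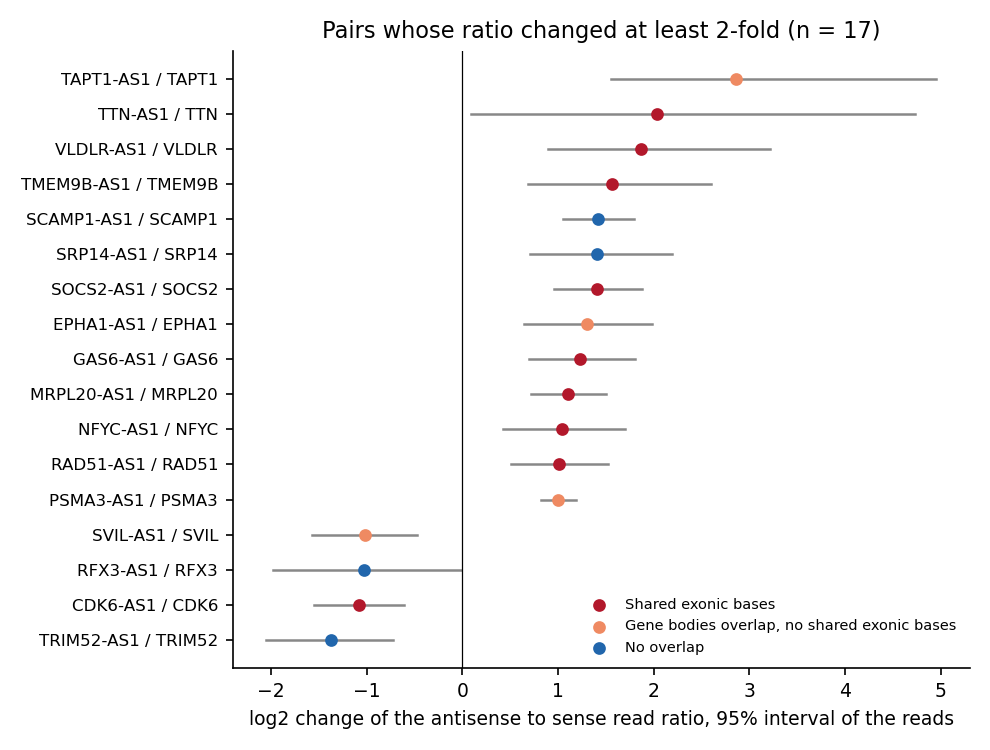
Log2 change of the antisense to sense read ratio (points) with its 95% interval from the reads (lines) for the 17 pairs that changed at least 2-fold with an interval off 0, coloured by the position of the antisense gene. The ratio moved toward the antisense gene in 13 pairs, up to 2.86 at TAPT1, and toward the sense gene in 4 pairs, down to -1.37 at TRIM52; the interval at RFX3 ends just under 0.

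By position, 104 antisense genes shared exonic bases with their sense gene (a median of 7.80% of the antisense exonic bases), 26 overlapped the gene body without shared exonic bases, 17 did not overlap and started within 1 kb, 2 within 5 kb and 2 farther away, and 4 had no record in GENCODE 44. These positions rest on an annotation whose gene bounds equal the deposited ones for 53 of the 155 antisense genes. The starts of 100 antisense genes lay within 1 kb of the sense start, overlapping or not. Median antisense log2 fold changes were 0.16 with shared exonic bases, 0.06 with overlap alone and 0.23 without overlap and with starts within 1 kb. The signs of antisense and sense change were the same in 46 of 88, 11 of 22 and 8 of 17 pairs of these groups. Where both read intervals left out 0, the same and opposite signs numbered 14 and 5 with shared exonic bases, 3 and 4 with overlap alone, and 1 and 3 without overlap, and whether these counts differ was not tested. Where exons are shared, sense reads counted for the antisense gene cannot be told apart from a joint change. Among the 33 antisense genes with no exonic base in any other annotated exon, 9 had read intervals above 0 (27.3%) and 2 below (6.06%), beside 27.5% and 11.7% over all lncRNAs with at least 50 reads, and the signs were the same in 15 of 31 pairs.

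**Figure D5:**
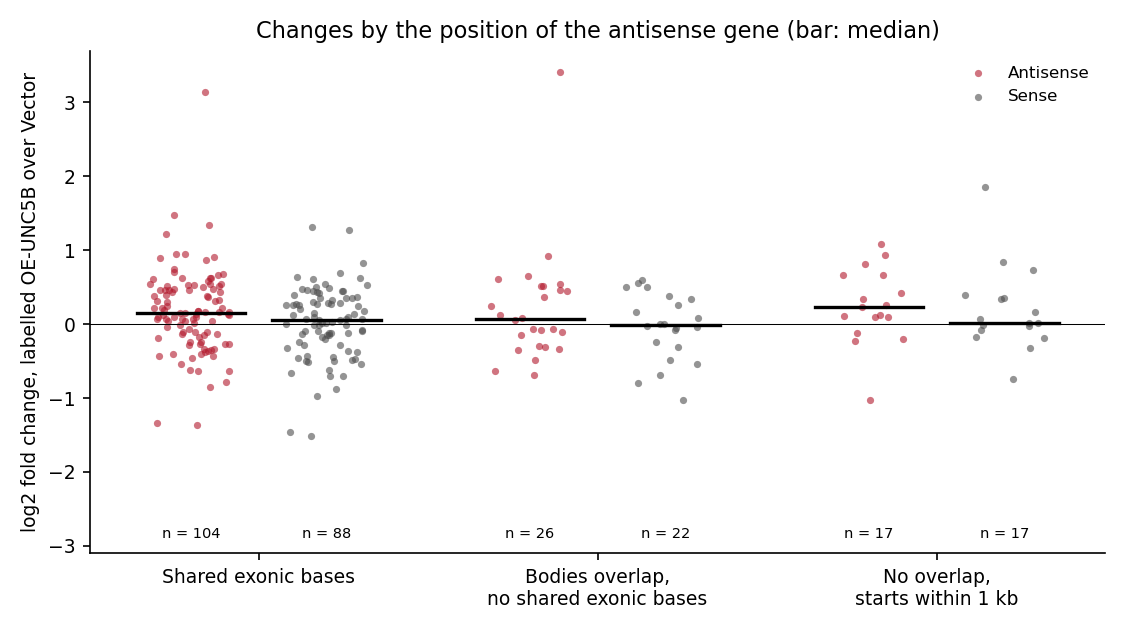
Log2 fold changes (library labelled OE-UNC5B over Vector) of antisense genes (red) and of sense genes with at least 10 reads (grey) by the position of the antisense gene, 1 point per gene, with bars at the medians. The antisense medians are 0.16, 0.06 and 0.23, and the points of the 3 positions cover overlapping ranges.

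In the chosen gene groups VLDLR-AS1 was the 1 antisense gene past 2-fold, where 6.09% of all lncRNAs with at least 50 reads were higher by as much. The hematopoietic list does not hold MEF2C-AS1 (log2 fold change 1.35), described above, which would be past 2-fold in it. Of 7 hematopoietic and immune antisense genes, 2 had read intervals above 0 and none below, where 27.5% of all lncRNAs with at least 50 reads had such an interval above 0 and 11.7% below 0. The counts of the small groups that follow are to be read against the same shares and are descriptions. IRF1-AS1 had 39 and 73 reads (log2 fold change 0.66, 0.09 to 1.27) with the interferon-responsive transcription factor IRF1 at 428 and 476 reads (-0.08, -0.28 to 0.11), and CD27-AS1 had 47 and 86 reads (0.63, 0.11 to 1.18) with the lymphocyte receptor gene CD27 at 0 and 1 reads. GATA2-AS1 had 229 and 295 reads (0.13, -0.13 to 0.38), while the stem cell transcription factor GATA2 had 718 and 583 reads (-0.54, -0.70 to -0.38). ITGB2-AS1 had 35 and 47 reads (0.18, -0.47 to 0.86), against 5541 and 6842 reads of ITGB2, the beta 2 integrin subunit of leukocyte adhesion (0.07, 0.02 to 0.12). PRKCQ-AS1, TRAF3IP2-AS1 and HLA-F-AS1 had log2 fold changes of 0.09, 0.44 and 0.10 with intervals across 0.

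Of the 4 adhesion and cytoskeleton antisense genes (ITGB2-AS1, FGD5-AS1, PXN-AS1 and TTN-AS1), 1 had an interval above 0, TTN-AS1. PXN-AS1 had 80 and 88 reads (-0.10, -0.55 to 0.36), and the focal adhesion protein gene PXN had 265 and 385 reads (0.30, 0.07 to 0.53). Of 4 cell cycle and replication antisense genes, TMPO-AS1 and OIP5-AS1 had intervals below 0 and MCM3AP-AS1 above 0. OIP5-AS1, a long cytoplasmic lncRNA, had 1379 and 1432 reads (-0.18, -0.29 to -0.07) with the centromere factor gene OIP5 at 240 and 239 reads (-0.24, -0.51 to 0.02). MCM3AP-AS1 had 71 and 130 reads (0.63, 0.21 to 1.07), with MCM3AP at 1879 and 2254 reads (0.03, -0.06 to 0.11), and MAPKAPK5-AS1 had 98 and 113 reads (-0.03, -0.43 to 0.37, and above 0 under other scalings). Among the 5 antisense genes of translation, metabolism and stress, VLDLR-AS1 and GABPB1-AS1 had intervals above 0. GABPB1-AS1 had 127 and 208 reads (0.47, 0.15 to 0.80), against 595 and 762 reads of GABPB1, a subunit of the GA-binding transcription factor (0.12, -0.04 to 0.28). NNT-AS1, PSMD6-AS2 and SLC16A1-AS1 had log2 fold changes of 0.04, 0.55 and -0.27 with intervals across 0.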

How the data were processed

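The authors deposited whole-number read counts per gene, without normalization, and FPKM values (reads per gene length and library size) for 1 Vector and 1 OE-UNC5B library. The submitters' processing notes name bcl2fastq 2.19, HISAT2 2.0.4, StringTie 1.3.0 and GRCh38; the gene annotation and use of strand are not given in the sources used here. Counts were scaled by TMM (edgeR 4.0.16, R 4.3.3), and log2 fold changes used 0.5 added reads, for genes with at least 10 reads. With 1 library per group no test of the conditions was possible; a change of 2-fold was called, and 95% Clopper-Pearson intervals of the reads (conditional exact intervals for ratios; scipy 1.17.1) cover counting error only. Exons came from GENCODE 44, limited to the deposited loci; 49659 identifiers matched, 99.97% on the same chromosome and 63.2% with the same start and end (53 of the 155 antisense genes). Promoter windows were RefSeq's. The calculations were tested on simulated data. Named were antisense and sense genes changed 2-fold, the 8 highest antisense FPKM, the 8 largest ratio changes with at least 50 reads in each gene, opposite pairs past 1.5-fold and fixed lists. Members and lists were chosen with earlier results of these data known. Alternatives were other scalings, FPKM, added reads, read limits, 1.5-fold, an adjusted binomial p of the reads and leaving out pairs with shared exons.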

Additional observations from a re-analysis of the deposited data

How the results depend on the processing

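The median antisense log2 fold change stayed between 0.11 and 0.19, and the share of pairs with the same sign between 46.7% and 52.8%, under each alternative run. The median sense change lay between -0.03 and 0.06 and was below 0 with antisense limits of 10 and 200 reads and without pairs that share exonic bases. Counts of 2-fold changes depended on the setting. With 0.1 added to the FPKM, 0 sense genes were lower and 2 ratios moved down; with 1 added, 0 antisense genes were higher and 1 lower (NPPA-AS1, -1.40), 2 sense genes were higher (without RFX3, 0.56) and 0 lower, and 1 ratio moved up and 0 down. A limit of 10 antisense reads gave 296 genes, with 29 antisense genes higher and 19 lower, 7 and 5 sense genes, and 27 and 10 ratios. Over all 15384 genes with at least 10 reads, 5.15% were higher and 4.79% lower, smaller shares than among these antisense genes. A limit of 200 reads gave 61 genes, with 0 higher and 1 lower, 0 and 1 sense genes, and 5 and 0 ratios, and the share of all genes at this limit was not counted. Without pairs that share exonic bases, 2 antisense genes were higher and 2 lower, 1 and 1 sense genes, and 5 ratios moved up. At 1.5-fold, 27 antisense genes were higher and 11 lower, 11 and 13 sense genes, and 31 and 9 ratios. The share of all genes past 1.5-fold was not counted, so these counts have no background beside them. Requiring an adjusted p of the reads under 0.05 left 1 lower sense gene. Fewer or more genes entered under the read limits and without shared exons; the cause of the other differences was not tested. Library totals and DESeq2 size factors shifted log2 fold changes by 0.048 and 0.035, and TRIM52-AS1 and INHBA were then under 2-fold, while library totals put 8 antisense genes in place of 6 past 2-fold higher. TAPT1-AS1 and VLDLR-AS1 were 2.61 and 2.45 with 0.1 added to the FPKM and 0.90 and 0.88 with 1 added. With 0.1 added, TRIM52-AS1 (-0.92), INHBA (-0.97) and SRP14-AS1 (0.999) were under 2-fold. Of 370 values of single genes under alternatives, 352 stayed within the gene's read interval, and none of a gene past 2-fold changed sign. In all, 12 values changed sign, those of MAPKAPK5-AS1, MAPKAPK5 and PRKCQ (main log2 fold changes -0.03, -0.01 and -0.01), which were above 0 with library totals, DESeq2 size factors and both FPKM settings. The antisense genes had 161 reads at the median, and 45 of 155 had under 100, so changes of less than 2-fold are often within counting error. No paired analysis was possible because each group has a single library, which also leaves none to omit.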
